A study of Mus musculus with 12 samples.

Results

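The platelet-derived growth factor (PDGF) system was examined in injured mouse muscle through its 7 genes, taken by gene name from the deposited count table. They are the receptors Pdgfra and Pdgfrb, the receptor-like gene Pdgfrl and the ligands Pdgfa, Pdgfb, Pdgfc and Pdgfd. All 7 were found among the 54532 genes of the table, and all 7 were among the 16393 genes with enough counts to be tested. RNA was sequenced from lysates of the whole tibialis anterior, the muscle along the front of the shin, 5 days after glycerol, an agent whose injection damages fibres and leads to adipocytes forming between them. The 6 KO libraries carry the genotype label "FAP no ppary", a conditional deletion of Pparg in fibro-adipogenic progenitors (FAPs), and the 6 control libraries are labelled wild type. Both groups carry the strain label 129svlmJ and had the same injury. The age of the mice, the Cre driver, the floxed allele and the animal behind each library are not stated in the labels, so p-values measure the spread between these libraries only. Pdgfra-driven Cre lines, some of them insertions into the Pdgfra locus, are in wide use for deletion in FAPs, and whether such an allele was present in either group is not stated either. An inserted allele can itself alter Pdgfra counts, so an effect of the allele on Pdgfra and one of the Pparg deletion cannot be told apart here.

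PDGF ligands are secreted as dimers and bind receptor tyrosine kinases, which pair up and phosphorylate each other on ligand binding. The alpha receptor is carried by mesenchymal progenitors and is the usual surface marker of muscle FAPs, while the beta receptor is typical of pericytes and smooth muscle and is also found on fibroblasts. PDGF-A and PDGF-C act mainly through the alpha receptor, PDGF-D mainly through the beta receptor, and PDGF-B binds both. In muscle the system is known for recruiting mural cells to vessels and for driving the growth and matrix production of FAPs after injury.

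Library totals ran from 15716056 to 29790720 counts in KO and from 17983299 to 25613732 in control (two-sided exact permutation p = 0.820). Mitochondrially encoded messages took 2.66% to 8.89% of counts in KO and 3.06% to 10.8% in control (two-sided exact permutation p = 0.574). Pparg, the deleted gene and the nuclear receptor that drives adipocyte formation, stood at 15.6 to 43.1 CPM in KO and 45.0 to 67.4 CPM in control, where CPM is the read count relative to the library total after TMM scaling. The groups did not overlap and no library went against its label, although KO replicate 2 lay close to the lowest control. Of all tested genes, 131, or 0.799%, had an adjusted p under 0.05 in edgeR's quasi-likelihood test with Benjamini-Hochberg adjustment, 0.0488% higher and 0.75% lower in KO. That count varied with the library left out: it was 200, 214, 6, 9, 77 and 35 without KO replicates 1 to 6 in turn, and 65, 24, 72, 12, 90 and 126 without control replicates 1 to 6 in turn.

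None of the PDGF genes passed the test between KO and control. The count was 0 of 7 in edgeR, DESeq2 and limma-voom with sample quality weights alike, against 0.799% of all genes in edgeR (0.0488% higher and 0.75% lower in KO). At an unadjusted p under 0.05 it was 0 of 7 in the main edgeR fit, against 9.47% of all genes (3.79% higher and 5.68% lower in KO). In 0 of 7 did the groups stand apart without overlap, against 1.43% of all genes. The log2 fold changes, KO minus control, were positive for 4 genes and negative for 3, with a median of 0.01, beside a median of -0.0013 over all tested genes. For 5 of the 7 genes the 95% interval of the fold change lay within 1.5-fold in either direction, and the exceptions were Pdgfra at its lower end and Pdgfd at its upper end. A difference of that size or larger was therefore outside the interval for Pdgfrb, Pdgfrl, Pdgfa, Pdgfb and Pdgfc.

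**Figure D1:**
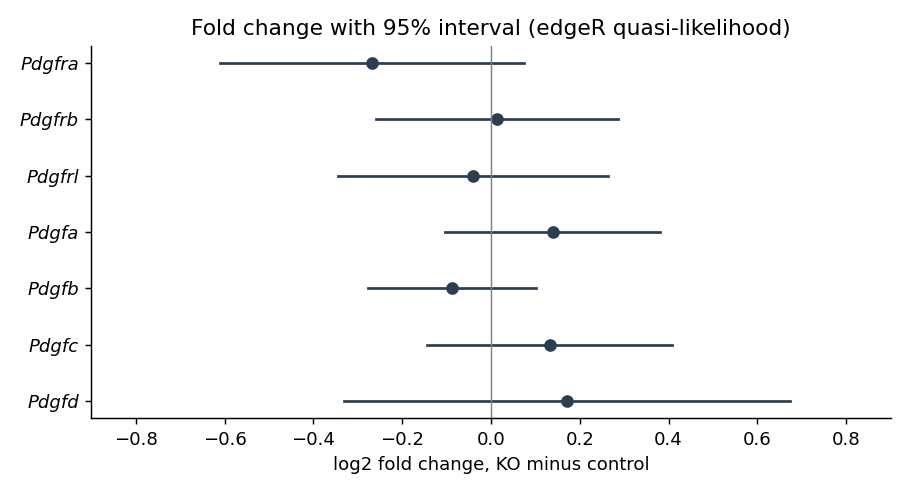
Log2 fold change of each PDGF gene, KO minus control, with its 95% interval from edgeR's quasi-likelihood fit over 6 KO and 6 control libraries. Every interval includes 0, the lowest estimate is that of Pdgfra at -0.27 and the widest interval is that of Pdgfd.

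Levels between genes were compared per length, as RPKM, the TMM-scaled CPM per kilobase of the gene length in the table. The order of genes and the ligand shares below depend on these lengths, which exceed the longest GENCODE M21 transcript unevenly. They were 3126 bases against 2069 for Pdgfrl and 10024 against 6834 for Pdgfra. For Pdgfa they were 3119 against 2060 and for Pdgfrb 5478 against 5423. The excess was far larger for Pdgfrl than for Pdgfrb, and under transcript lengths the mean of Pdgfrl would pass that of Pdgfrb. The rest of the order under transcript lengths was not tested. With the deposited lengths Pdgfrb was the most abundant, at 23.1 ± 4.33 RPKM in KO and 22.9 ± 3.12 in control (SD, n = 6 each, as for all such values here). Pdgfrl followed with 16.2 ± 1.67 RPKM in KO and 16.7 ± 3.75 in control, and Pdgfa with 12.9 ± 2.15 in KO and 11.7 ± 1.33 in control. Pdgfra had 9.24 ± 2.36 RPKM in KO and 11.1 ± 1.90 in control. In RPKM the receptor that marks FAPs thus stood below the beta receptor in this tissue, in all 12 libraries. In CPM, which takes no account of length, Pdgfra stood slightly above Pdgfrb in control replicates 3, 4 and 6. The values there were 105.5 against 105.2, 114.9 against 111.5 and 145.2 against 144.0 CPM. Pdgfb had 8.21 ± 0.82 RPKM in KO and 8.72 ± 0.98 in control, Pdgfc 4.26 ± 0.72 in KO and 3.89 ± 0.69 in control, and Pdgfd 1.51 ± 0.41 in KO and 1.34 ± 0.42 in control. Within single libraries the order Pdgfrb, Pdgfrl held in 12 of 12 with the deposited lengths, although the closest ratio was 1.00. Pdgfrl exceeded Pdgfa in 10 of 12 libraries, Pdgfa exceeded Pdgfra in 9 of 12 and Pdgfra exceeded Pdgfb in 9 of 12, so these neighbours were not separated beyond the spread of the libraries. Pdgfb stood above Pdgfc, and Pdgfc above Pdgfd, in 12 of 12 libraries, with ranges that did not touch.

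**Figure D2:**
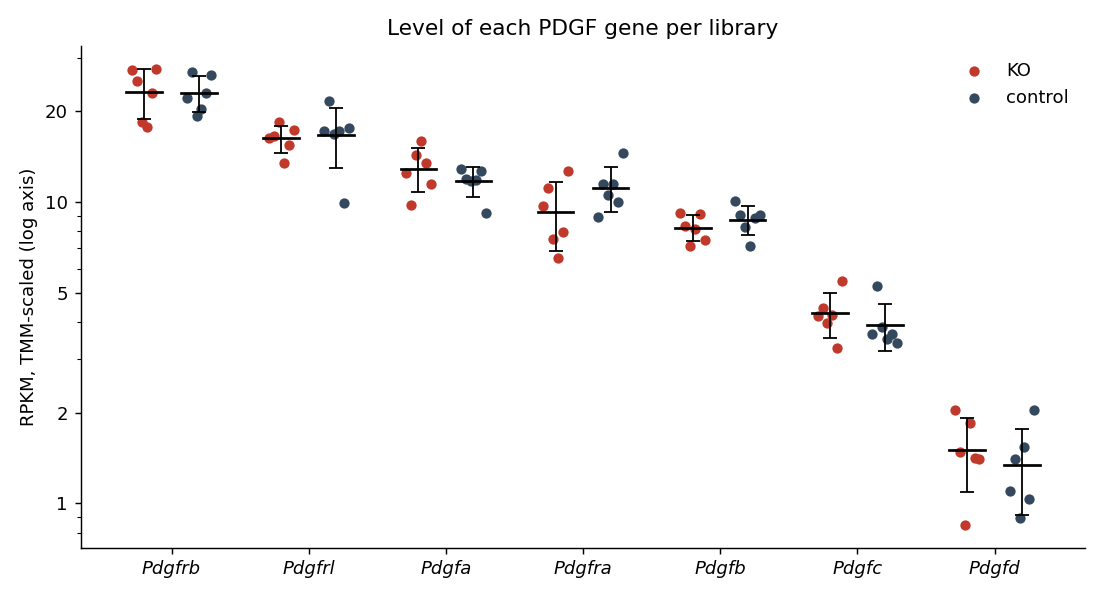
Level of each PDGF gene in each library, as TMM-scaled RPKM on a log axis, for 6 KO and 6 control libraries, with bars at the mean ± SD and genes ordered by their mean over the 12 libraries. KO and control points overlap for every gene, and Pdgfc and Pdgfd lie below the other 5 genes, and apart from each other, without overlap.

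Pdgfra (ENSMUSG00000029231, chromosome 5, 75152292 to 75198215, plus strand, GRCm38) encodes the alpha receptor. It had a lowest, median and highest value of 65.2, 88.3 and 127 CPM in KO and 89.0, 110 and 145 CPM in control. KO replicates 3, 4 and 5, at 75.2, 65.2 and 79.3 CPM, lay below every control, and the other 3 KO libraries lay within the control range. The log2 fold change was -0.27 (SE 0.16, 95% interval -0.61 to 0.08), with an unadjusted p of 0.116 and an adjusted p of 0.688 (edgeR). As a fold this is 0.831, with an interval from 0.655 to 1.05, and the part of a possible Cre insertion in it was not tested. The Pdgfra result varied with the model. Its log2 fold change was -0.38 to -0.17 with 1 library left out and -0.36 to -0.23 in the other alternatives. The unadjusted p fell under 0.05 in some alternatives, while the lowest adjusted p was 0.202 (limma-voom with sample quality weights). Over the FAP marker list, which does not include Pdgfra, the mean log2 CPM was 6.94, 6.89, 6.54, 6.94, 6.36 and 6.72 in KO replicates 1 to 6, and 6.82 to 7.14 in control. KO replicates 3, 5 and 6 lay below every control on this score, so KO replicate 4, the lowest for Pdgfra, was within the control range and KO replicate 6, the highest KO library for Pdgfra, was below it. The summed CPM of the list, most of it from the collagens Col1a1 and Col3a1, ran from 7764 to 12646 in KO and from 9912 to 13372 in control, and there KO replicates 3, 4 and 5 were the ones below every control. In RNA from whole muscle, fewer cells of a type and less RNA per cell cannot be told apart.

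The 250 bases upstream of the RefSeq start of Pdgfra (GRCm38.p6, chr5:75152001-75152250, plus strand) are shown because Pparg, the deleted gene, is a DNA-binding receptor and Pdgfra had the lowest fold change of the 7 genes. The same stretch upstream of Pdgfc (GRCm38.p6, chr3:81036166-81036415, plus strand) is shown because a motif match sits close to its start. Capitals mark motif matches, and both run 5′ to 3′.
Pdgfra: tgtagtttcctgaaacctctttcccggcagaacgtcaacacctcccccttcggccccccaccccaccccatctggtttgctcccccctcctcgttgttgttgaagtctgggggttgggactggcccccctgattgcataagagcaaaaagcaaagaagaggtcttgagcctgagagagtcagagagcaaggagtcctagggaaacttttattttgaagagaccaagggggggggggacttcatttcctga
Pdgfc: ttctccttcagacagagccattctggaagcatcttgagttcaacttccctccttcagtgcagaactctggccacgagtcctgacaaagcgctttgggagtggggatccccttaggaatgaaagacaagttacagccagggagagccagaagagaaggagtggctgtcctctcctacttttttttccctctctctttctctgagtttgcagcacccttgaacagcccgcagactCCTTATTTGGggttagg

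The motifs were searched on both strands. They were the PPAR direct repeat, a pair of AGGTCA half-sites with a single base between them, the half-site AGGTCA by itself, which every direct repeat contains, the CArG box bound by serum response factor, the GC box GGGCGG and the TATA box TATAAA. The Pdgfra stretch held 0 matches to any of them. The Pdgfc stretch held 1 CArG box, from position -17 to -8 relative to the start, counted with -1 as the last base before it. The PPAR direct repeat occurred in 0.0338% of the 32536 distinct promoter stretches of the same length in the RefSeq table, the half-site in 14.0%, the CArG box in 1.48%, the GC box in 33.0% and the TATA box in 12.3%. Of the 6 members looked up, 4 were in the table. Both stretches upstream of Pdgfa held GC boxes and the one upstream of Pdgfd held 1 TATA box, at -160 to -155.

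Pdgfrb (ENSMUSG00000024620, chromosome 18, 61045150 to 61085061, plus strand) encodes the beta receptor. Its lowest, median and highest values were 96.6, 131 and 151 CPM in KO and 105, 123 and 147 CPM in control. KO libraries lay on both sides of the controls, 2 above them, 2 below and 2 within their range. The log2 fold change was 0.01 (SE 0.13, 95% interval -0.26 to 0.29, adjusted p = 0.996 in edgeR), with a sign that turned in several alternatives.

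Pdgfrl (ENSMUSG00000031595, chromosome 8, 40926212 to 40990785, plus strand) encodes a secreted protein related to the extracellular part of the receptors, without a kinase. It ranged over 42.1, 51.2 and 57.4 CPM (lowest, median, highest) in KO and 31.0, 53.7 and 67.2 CPM in control. All 6 KO libraries lay within the control range, whose lowest and highest values came from control replicates 5 and 2. The log2 fold change was -0.04 (SE 0.14, 95% interval -0.34 to 0.26, adjusted p = 0.984 in edgeR).

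The receptors were also compared with each other within each library, which does not depend on how libraries are scaled. Pdgfra stood at 0.397 ± 0.047 of the Pdgfrb level in KO and 0.488 ± 0.073 in control (ratio of RPKM, SD, n = 6 each). The size of this ratio depends on the gene lengths used, while its log2 difference between groups does not. In single libraries the ratio was 0.356, 0.444, 0.409, 0.369, 0.346 and 0.459 in KO replicates 1 to 6, and 0.404, 0.424, 0.548, 0.563, 0.437 and 0.551 in control replicates 1 to 6. Control replicates 3, 4 and 6 lay above every KO library and KO replicates 1, 4 and 5 below every control, and the others overlapped. On the log2 scale the difference, KO minus control, was -0.29, with an interval of -0.56 to -0.04 from inverting the permutation test at 95%, and the two-sided exact permutation p was 0.0390. Of the 12 fits with 1 library left out, 6 kept p under 0.05. Without KO replicate 1, 4 or 5 or control replicate 3, 4 or 6 the exact permutation p was 0.0736 to 0.0779. The ratio was 1 test, with no adjustment, chosen with earlier results of these data known, and neither receptor alone passed over all genes. The mean log2 CPM of the mural markers was 4.62 ± 0.13 in KO and 4.81 ± 0.09 in control, with KO replicates 2, 4, 5 and 6 below every control. Their summed CPM, most of it from Des, which muscle fibres also express, was 2784 to 4956 in KO and 2871 to 4255 in control. The part of mural cells, FAPs and a possible Cre insertion in the ratio was not tested.

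**Figure D3:**
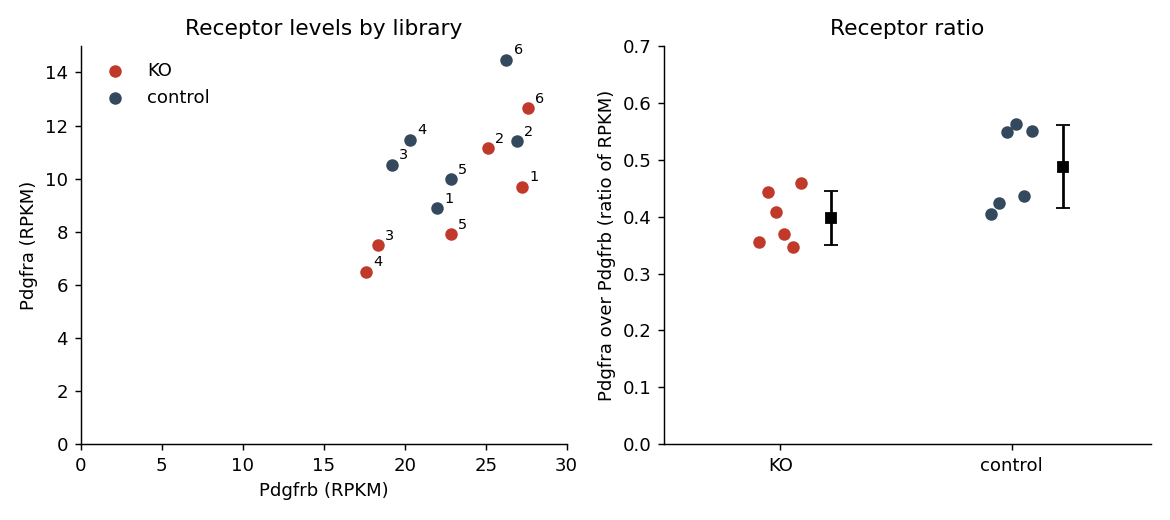
Left, Pdgfra against Pdgfrb in RPKM, 1 point per library with its replicate number; right, the ratio of Pdgfra to Pdgfrb per library, with squares at the mean and bars of 1 SD, KO left of control. The KO ratios run from 0.346 to 0.459 and the control ratios from 0.404 to 0.563, so the groups overlap.

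Among the ligands, Pdgfa (ENSMUSG00000025856, chromosome 5, 138976014 to 138997370, minus strand), which signals through the alpha receptor, had lowest, median and highest values of 30.4, 40.4 and 49.5 CPM in KO and 28.6, 36.9 and 40.1 CPM in control. KO replicates 3, 4 and 5 lay above every control and the other 3 lay within the control range. These are the same KO libraries that lay below every control for Pdgfra. The log2 fold change was 0.14 (SE 0.11, 95% interval -0.10 to 0.38, adjusted p = 0.828 in edgeR). Exons of Pdgfa overlap the opposite-strand gene 6330403L08Rik, which had 150 to 312 counts per library, so the Pdgfa counts, 542 to 1344, are less certain if strand was not used.

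Pdgfb (ENSMUSG00000000489, chromosome 15, 79995874 to 80014977, minus strand) encodes the ligand by which endothelium recruits pericytes. It had 29.7, 34.1 and 38.2 CPM in KO (lowest, median, highest) and 29.7, 37.1 and 41.9 CPM in control, and all 6 KO libraries lay within the control range. It was the steadiest of the 7 genes from library to library, with a pooled within-group SD of 0.16 on the log2 CPM scale, where the median over all tested genes was 0.23. The log2 fold change was -0.09 (SE 0.09, 95% interval -0.28 to 0.10, adjusted p = 0.883 in edgeR).

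Pdgfc and Pdgfd encode ligands that are secreted with a CUB domain and become active after proteases remove it. Pdgfc (ENSMUSG00000028019, chromosome 3, 81036416 to 81214040, plus strand) had 16.7, 21.4 and 27.9 CPM in KO and 17.4, 18.6 and 26.8 CPM in control (lowest, median, highest). The highest control, replicate 2, stood apart from the other 5, and 4 of 6 KO libraries lay within the control range. Its log2 fold change was 0.13 (SE 0.13, 95% interval -0.14 to 0.41, adjusted p = 0.877 in edgeR). Pdgfd (ENSMUSG00000032006, chromosome 9, 6168584 to 6378850, plus strand) was the least abundant, with 68 to 150 counts per library. It had 2.68, 4.57 and 6.45 CPM in KO and 2.81, 3.94 and 6.45 CPM in control (lowest, median, highest), and 4 of 6 KO libraries lay within the control range. Its log2 fold change was 0.17 (SE 0.23, 95% interval -0.33 to 0.67, adjusted p = 0.927 in edgeR), and its pooled within-group SD of 0.43 on the log2 CPM scale was the largest of the 7.

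The ligand pool had the same order in both groups. Pdgfa made up 47.7% ± 5.34 of the summed ligand RPKM in KO and 45.6% ± 3.96 in control, and Pdgfb 30.7% ± 3.34 in KO and 34.0% ± 2.94 in control. Pdgfc made up 16.0% ± 3.31 in KO and 15.1% ± 2.10 in control, and Pdgfd 5.59% ± 1.38 in KO and 5.28% ± 1.95 in control. The sum of the ligands was 26.9 ± 2.05 RPKM in KO and 25.6 ± 1.77 in control, and that of the kinase receptors 32.4 ± 6.50 RPKM in KO and 34.1 ± 4.44 in control. These sums and shares are descriptions without a test, and their group ranges overlapped throughout.

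**Figure D4:**
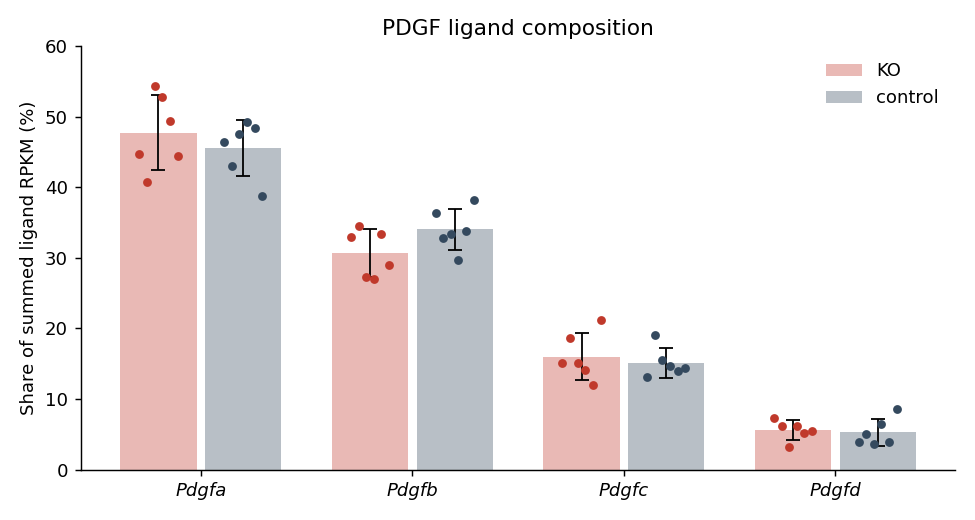
Share of each ligand in the summed RPKM of Pdgfa, Pdgfb, Pdgfc and Pdgfd, with bars at the mean, error bars of 1 SD and 1 point per library for 6 KO and 6 control libraries. Pdgfa is the largest share at 47.7% in KO and 45.6% in control, and the KO and control points of each ligand overlap.

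The genes most alike to each member were ranked by Pearson's r of log2 CPM over the 12 libraries, among 12521 protein-coding genes whose log2 CPM averaged 1 or more. They are the highest of many, so no p is given. For Pdgfra they were Sgpp1, Vwa5a and Atl3 (r = 0.96 for each). For Pdgfrb they were Pdzd4 (r = 0.96), Casp8 (r = 0.95) and Fam172a (r = 0.93), and for Pdgfrl Srpx2 (r = 0.94), Cpz (r = 0.92) and Cpxm1 (r = 0.90). Cpz had a Spearman rho of only 0.38, against 0.83 for Srpx2. Pdgfa was nearest to Tlk2 (r = 0.94), Otoa (r = 0.93) and Zscan18 (r = 0.93). Pdgfc was nearest to Zfp655 (r = 0.93), Npl (r = 0.85) and Gadd45b (r = 0.84), and Pdgfd to Zfp729b (r = 0.89), Zfp592 (r = 0.78) and Gm12166 (r = 0.76). The likeness was weakest for Pdgfb, whose nearest genes were Nudt16 (r = 0.78), Trib2 (r = 0.76) and Nop14 (r = 0.76).

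Genes that activate, bind or hold PDGF ligands did not pass the test, with 0 of 14 tested members called and a median log2 fold change of 0.04. Plat, the protease known to activate PDGF-C, had 34.4 ± 5.88 CPM in KO and 32.4 ± 6.31 in control, and Plau, which can activate PDGF-D, 124.6 ± 22.5 in KO and 119.8 ± 18.5 in control; both were chosen for that role after their values were seen. Igfbp7, a matrix protein of vessels, had 269.8 ± 29.3 CPM in KO and 331 ± 34.4 in control (log2 fold change -0.29, adjusted p = 0.225 in edgeR). Hspg2, the basement membrane proteoglycan perlecan, had a log2 fold change of -0.19, Agrn, the proteoglycan agrin, 0.18 and St14, a membrane protease, 0.66 from under 2 CPM.

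The signalling chain below the receptors had no called gene in the main edgeR fit. Some of its brakes were called in alternatives, edgeR fits among them. Of 31 adaptors and effectors, 0 passed, and the log2 fold changes ran from -0.32 for Pik3r1, the regulatory subunit of phosphoinositide 3-kinase, to 0.22, with a median of 0.03. Of 20 brakes on receptor signalling, 0 passed over all genes, with a median of 0.03 and members on both sides. Dusp4, a phosphatase of MAP kinases, had 8.60 ± 2.71 CPM in KO and 14.4 ± 2.51 in control (log2 fold change -0.73, adjusted p = 0.101 in edgeR). Spry4, an inhibitor of receptor kinase signalling, had 9.16 ± 1.55 CPM in KO and 12.9 ± 1.87 in control (log2 fold change -0.49, adjusted p = 0.119 in edgeR). Dusp5, a nuclear phosphatase of ERK, stood on the other side, with 11.6 ± 2.48 CPM in KO and 8.24 ± 0.97 in control (log2 fold change 0.49, adjusted p = 0.153 in edgeR), and Errfi1, an inhibitor of the EGF receptor, had a log2 fold change of 0.18. DESeq2, which called 387 of 31950 genes, called 3 brakes, Dusp4 (adjusted p = 0.0156), Spry4 (adjusted p = 0.0334) and Dusp5 (adjusted p = 0.0428). Over the 24 alternatives Dusp4 passed in 1, Spry4 in 5 and Dusp5 in 2. For Spry4 these included edgeR fits with a further covariate. The edgeR adjusted p was 0.0366 with the replicate number, 0.0302 with a surrogate variable and 0.0284 with the mitochondrial share.

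Of 26 growth factor response genes 0 passed over all genes, while 19 had positive log2 fold changes and the median was 0.10. At an unadjusted p under 0.05 there were 5 with positive and 0 with negative values, where 3.79% of all genes were higher and 5.68% lower. Csrnp1, an immediate early nuclear protein, had 7.60 ± 0.62 CPM in KO and 5.93 ± 0.48 in control (log2 fold change 0.36, adjusted p = 0.136 in edgeR, 0.0347 in DESeq2). Junb, an AP-1 subunit, had 83.1 ± 17.1 CPM in KO and 65.1 ± 4.61 in control (log2 fold change 0.35, adjusted p = 0.277 in edgeR). Egr3 and Klf10, transcription factors induced by growth factors, had log2 fold changes of 0.45 and 0.20. Among the other class III receptor kinases and their ligands, relatives of the PDGF receptors, 0 of 7 passed, with a median of -0.07, and Kitl, the ligand of Kit, had a log2 fold change of -0.27.

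Cell type markers were read beside these values. Of 14 adipocyte markers 4 fell, Tusc5, Fabp4, Lpl and Adrb3, with a median log2 fold change of -1.60 and summed levels of 1130 to 4895 CPM in KO and 5700 to 9381 CPM in control. With 1 library left out these calls were kept in 10, 9, 7 and 5 of 12 fits, in the order named. Of 19 tested FAP markers 2 fell, the basement membrane collagen Col15a1 (log2 fold change -0.52) and the actin-severing gelsolin Gsn (-0.56), with a median of -0.14, adjusted p = 0.0208 and 0.0300 (edgeR), and calls kept in 8 and 4 of 12 fits with 1 library left out. Clec3b and Dpt, matrix proteins of fibroblasts, had log2 fold changes of -0.86 and -0.67 with adjusted p = 0.0939 and 0.153 (edgeR). Of 15 mural markers 0 passed and the median was -0.14. Their log2 fold changes lay on both sides, 6 positive and 9 negative, from -0.91 to 0.28. At an unadjusted p under 0.05 there were 4, all with negative values, where 5.68% of all genes were lower. Those were Steap4, a metalloreductase (67.4 ± 19.1 CPM in KO and 124 ± 30.5 in control, adjusted p = 0.0794 in edgeR), Vtn, Cox4i2 and Mcam. DESeq2, which called 387 of 31950 genes, called Steap4 (adjusted p = 0.0035) and Vtn (adjusted p = 0.025). At the same unadjusted p in edgeR, 13 of 14 adipocyte and 7 of 19 FAP markers were lower. Of the satellite cell and myoblast markers 5 of 11 were higher, where 3.79% of all genes were. Endothelial markers had 0 of 14 called and a median of -0.08, platelet markers 0 of 4 and 0.03, and macrophage markers 0 of 14 and 0.02. Satellite cell and myoblast markers had 0 of 11 called, 11 of 11 positive and a median of 0.36, with summed levels of 3355 to 5841 CPM in KO and 2746 to 4293 CPM in control. DESeq2 called the satellite cell genes Cdh15 (adjusted p = 0.0236) and Myod1 (adjusted p = 0.0418). Myofibre markers had 0 of 12 called and a median of 0.13, tenocyte markers 0 of 8 and -0.54, Schwann cell markers 0 of 7 and -0.05, and mitochondrially encoded genes 0 of 13 and -0.29. The listed genes A2m, Tcf21, Gp9, Gp1bb, Gp5, Gp6, Chrdl2 and Sox10 had too few counts to be tested. The part of these markers in the values of the PDGF genes was not tested.

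**Figure D5:**
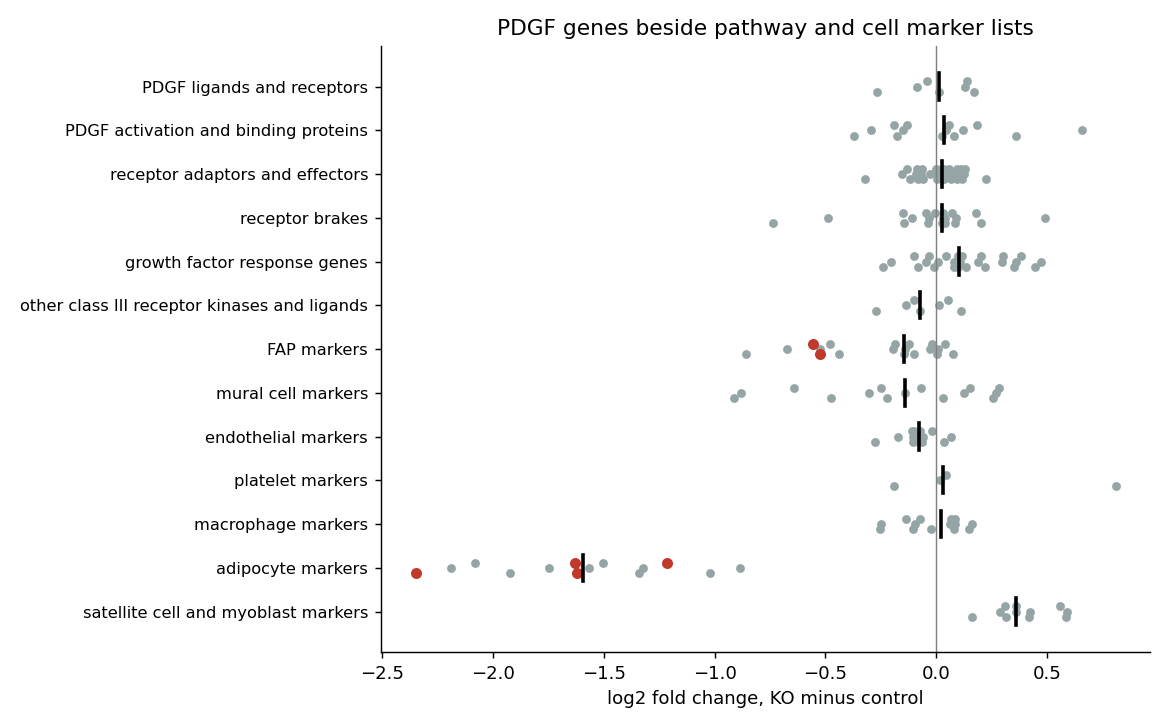
Log2 fold change, KO minus control, of the tested genes of each list shown, 1 point per gene, in red where the adjusted p was under 0.05 (edgeR) and with a black bar at the list median. The 7 PDGF genes lie around 0 with no red point, while the adipocyte list has a median of -1.60.

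Receptor levels were compared with each other, and members with the markers of the cells known to carry them, over all libraries and within each group, which made 12 relations. After Benjamini-Hochberg adjustment over the 12, 0 had a p under 0.05. Pdgfra and Pdgfrb, as log2 CPM, moved together over all 12 libraries, with a Pearson r of 0.68 (permutation p = 0.0149, adjusted p = 0.0897) and a Spearman rho of 0.59 (permutation p = 0.0458, adjusted p = 0.275). Without KO replicates 3 and 4, the libraries farthest from the median of Pdgfrb, r was 0.37. Leaving out the extreme libraries also narrows the range, so the drop cannot show that the relation rested on them. Within KO alone r was 0.89 (exact permutation p = 0.0139, adjusted p = 0.0897) and rho 0.94 (exact permutation p = 0.0167, adjusted p = 0.200). There r was 0.77 in the 4 libraries left without KO replicates 3 and 4. Within control r was 0.50 (exact permutation p = 0.342, adjusted p = 0.456) and rho 0.26 (exact permutation p = 0.658, adjusted p = 0.790). It turned to an r of -0.58 in the 4 libraries left without control replicates 2 and 6.

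Pdgfb and the mean log2 CPM of the endothelial markers had an r of 0.61 over 12 libraries (permutation p = 0.0291, adjusted p = 0.117) and a rho of 0.48 (permutation p = 0.115, adjusted p = 0.462), and r was 0.41 without KO replicate 3 and control replicate 6. Pdgfra and the FAP markers had an r of 0.49 (permutation p = 0.103, adjusted p = 0.308) and a rho of 0.34 (permutation p = 0.275, adjusted p = 0.510), and r was 0.15 without KO replicates 3 and 5. Within KO the r of Pdgfra with the FAP markers was 0.20 and the rho -0.14 (exact permutation p = 0.719 and 0.803). Pdgfrb and the mural markers had an r of -0.025 (permutation p = 0.939, adjusted p = 0.939) and a rho of 0.0 (permutation p = 1.0, adjusted p = 1.0). Leaving out KO replicates 5 and 6 turned the last r to 0.42. Within groups of 6 the exact permutation p of these r values was 0.131 in KO and 0.317 in control for Pdgfb, 0.719 in KO and 0.242 in control for Pdgfra, and 0.511 in KO and 0.186 in control for Pdgfrb.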

How the data were processed

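Per the file headers and labels, the authors deposited whole-number read counts per gene and a table of FPKM values for the same 12 libraries, with the gene lengths in bases used here for RPKM. Per the submitters' processing notes, tools included fastp, featureCounts and HISAT2 2.0.5, with build GRCm38 (mm10). No source used here states the strand setting. From the deposited counts, genes passing filterByExpr (minimum count 10, minimum total 15) were scaled by TMM and compared with edgeR 4.0.16 robust quasi-likelihood F tests in R 4.3.3, p-values being adjusted by Benjamini-Hochberg across every tested gene. Standard errors were derived from each log2 fold change and its F value. The 250-base promoter stretches are from RefSeq (GRCm38.p6). No member but Pdgfc shared over 2% of its 50-base words with other genes in GENCODE M21, and Pdgfc shared 2.85%, all with the opposite-strand Gm16000 (0 to 2 counts per library). Libraries were checked for duplicates: each of the 30 within-group pairs differed beyond sampling noise (chi-square per degree of freedom 13.1 to 161). On simulated counts the fit recovered 74 of 100 genes changed 1.5-fold and 89 of 100 changed 2-fold, with 15 false among 178 calls. The changed genes were drawn from those above the median level. Simulated counts were drawn independently for each gene, without variation shared by many genes of a library, so recovery in the real libraries can differ. Members, lists and tests were chosen with earlier results of these data known. Named list genes are those past the threshold and up to 4 per list with the smallest p. Alternatives used DESeq2 1.42.0, limma 3.58.1 (voom with sample quality weights) and sva 3.50.0.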

Additional observations from a re-analysis of the deposited data

Results flagged for a closer look

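Among the 28 sets of 6 values examined (each gene, ratio, share and sum in each group), 2 held a library far from the others of its group, and chance alone gives about 1 in 20. Pdgfa in control replicate 6 stood at 28.6 CPM, below the other 5 controls. Pdgfc in control replicate 2 stood at 26.8 CPM, above the other 5 controls.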

How the results depend on the processing

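The count of PDGF genes past the threshold was 0 in each of the 24 alternatives. At an unadjusted p under 0.05 it was 0 in the main fit but 1 in some alternatives. Those were limma-voom with sample quality weights, the replicate block, a surrogate variable, the mitochondrial share, and without KO replicate 6 or control replicate 2. Over all tested genes these had 2496, 1906, 2091, 1800, 1717 and 1486 genes under it, in that order, and the main fit 1552. Among the members only Pdgfra and Pdgfc had an unadjusted p under 0.05 in any alternative. Pdgfra, Pdgfa, Pdgfb, Pdgfc and Pdgfd kept the sign of their fold change throughout. Pdgfrb, at 0.01, was -0.0066 with limma-voom and sample quality weights, -0.021 with the mitochondrial share as a covariate and -0.044 to 0.090 with 1 library left out. Pdgfrl, at -0.04, was 0.0014 with limma-voom and sample quality weights and -0.14 to 0.045 with 1 library left out. The receptor ratio difference was -0.34 to -0.25 with 1 library left out (exact permutation p = 0.0303 to 0.0779). Whether the replicate numbers pair the libraries was not settled by 6 correlations. Same-numbered deviations correlated at -0.13 to 0.46, over 0.1 in 2 of 6 pairs. Of the 6 KO libraries 1, replicate 6, correlated best with its own number. With the replicate block the ratio difference was -0.29 (exact sign-flip permutation p = 0.0625), and 15 genes were called higher and 221 lower, against 8 and 123 without it. Genes called higher and lower were 64 and 323 with DESeq2, 64 and 325 with limma-voom and sample quality weights, 25 and 206 with a surrogate variable, and 1 to 24 and 5 to 190 with 1 library left out. The relation of Pdgfrb to the mural markers was 0.42 without the 2 libraries farthest from the median. The number of called FAP markers ran from 0 to 4 and of adipocyte markers from 0 to 10 over the alternatives. Lists with 0 calls in the main edgeR fit reached up to 3 for receptor brakes and 2 for mural and for satellite cell markers. They reached 1 for growth factor response genes, PDGF activation proteins and mitochondrially encoded genes. The other lists stayed at 0. The causes were not tested. Pdgfd, with the fewest counts, had the widest interval.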
